A study of Mus musculus with 6 samples.

Results

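Scavenger receptors are surface and endosomal proteins that bind oxidised lipoproteins, bacterial coats and other modified ligands and carry them into the cell, and the receptors for apoptotic cells let phagocytes recognise and swallow dying cells. In fat, macrophages gather around dying adipocytes in obesity and take up the lipid they release, so that both groups of receptors are read there largely, though not only, as macrophage genes. The 10 genes followed here were Msr1, Marco and Colec12 of scavenger receptor class A, Scarb1 of class B, Cd68 of class D, Olr1 of class E, Stab1 and Stab2 of class H, and the receptor tyrosine kinases Mertk and Axl, which bind phosphatidylserine on dying cells through bridging ligands, Gas6 for both and Pros1 for Mertk. The genes were matched by symbol in the deposited table of 23556 probes. Of the 10 genes, 8 had a probe, with 9 probes in all because Msr1 had 2. Stab2 and Colec12 were not analysed here. The 8 genes stand against 17024 genes tested in the series. They were chosen on the log2 ratios of db/db against db/+ mice that are reported here, so the values of that comparison are a description and support nothing.

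Epididymal fat (eWAT), a white adipose depot attached to the epididymis, was taken from mice at 10 weeks of age. The 3 db/db mice were homozygous for the db mutation of the leptin receptor gene in all their cells, and the labels call them obese and severely hyperglycemic with only modest hyperinsulinemia. The 3 db/+ mice carried 1 mutant allele and served as lean controls. The file headers mark each mouse and the lean pool as given an unnamed vehicle. On each of the 6 arrays a single mouse, labelled with Cy5, was hybridised against 1 common pool of lean fat, labelled with Cy3, so each value is a ratio of a mouse over that pool. The db/+ mice are numbered 1, 2 and 3 and the db/db mice 51, 52 and 53, as in the file headers. The labels describe the samples as biological replicates.

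Between 23355 and 23506 probes had a value on an array, and precision is limited by having only 6 arrays. Of 8 listed adipocyte markers 7 were measured, and on the authors' scale their Cy5 intensity in db/+ fat averaged from 0.0126 for Pnpla2, a lipase, to 29.2 for Cidec, a lipid droplet protein, with 3.84 for Adipoq (adiponectin) and 11.6 for Fabp4 (a fatty acid binding protein). Of the db/db arrays, 2 stood apart by genes of epididymis epithelium. The median log2 ratio of 10 measured epididymis markers was 3.72 and 4.19 in db/db mice 52 and 53, -1.81 in db/db mouse 51 and 0.72, 0.07 and -1.82 in the db/+ mice. Their summed Cy5 intensity was 149 and 142 in db/db mice 52 and 53, and 1.46 in db/db mouse 51. The db/+ range was 1.44 to 11.7. Across all probes the ratios of db/+ mice 1 and 2 correlated at r = -0.38. The dyes are stated in the labels, so the direction of the ratios was kept.

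Promoter windows from RefSeq (GRCm38.p6, from 250 bases before to 50 bases after a gene start) were held for 7 of the 10 genes. The windows of Olr1, Cd68 and Marco are shown because they belong to measured receptors whose ratios were higher in every db/db mouse than in any db/+ mouse; Msr1, the other such gene, had no window. Capitals mark 2 short motifs, read on both strands: TGANTCA, bound by AP-1 factors, and GAGGAA or its reverse complement TTCCTC, the core bound by PU.1 and other ETS factors. Each sequence is given 5′ to 3′ on the strand of its gene.
Olr1, chr6:129507116-129507415, minus strand: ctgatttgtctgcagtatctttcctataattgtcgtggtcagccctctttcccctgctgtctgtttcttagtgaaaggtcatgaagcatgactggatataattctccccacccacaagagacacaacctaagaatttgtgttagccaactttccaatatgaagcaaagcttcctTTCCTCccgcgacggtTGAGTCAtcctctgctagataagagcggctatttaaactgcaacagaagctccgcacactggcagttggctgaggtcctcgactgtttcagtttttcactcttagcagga
Cd68, chr11:69666121-69666420, minus strand: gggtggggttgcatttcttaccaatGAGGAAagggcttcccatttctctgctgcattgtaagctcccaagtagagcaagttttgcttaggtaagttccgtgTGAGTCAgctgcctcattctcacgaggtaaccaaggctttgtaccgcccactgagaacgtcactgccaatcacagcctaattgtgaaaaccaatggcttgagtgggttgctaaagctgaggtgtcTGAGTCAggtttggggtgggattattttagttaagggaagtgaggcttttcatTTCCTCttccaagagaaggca
Marco, chr1:120504975-120505274, minus strand: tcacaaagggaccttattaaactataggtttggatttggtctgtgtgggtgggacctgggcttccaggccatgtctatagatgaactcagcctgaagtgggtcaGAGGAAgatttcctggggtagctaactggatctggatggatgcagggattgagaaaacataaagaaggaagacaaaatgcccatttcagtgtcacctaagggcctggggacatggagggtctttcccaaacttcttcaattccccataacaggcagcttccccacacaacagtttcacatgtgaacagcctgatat

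TGANTCA was found in the windows of 2 of the 7 genes, Olr1 and Cd68, and in 7.81% of all 32851 windows of the same length. In Olr1 it began at base -60 from the gene start, and in Cd68 at bases -149 and -24. GAGGAA was found in 5 of the 7 windows (Olr1, Cd68, Marco, Stab1 and Axl) and in 28.3% of all windows. CACGTG, a motif of the MiT/TFE factors that serve lysosomal genes, was in none of the 7 windows and in 7.15% of all windows. These matches describe the letters of the windows only.

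Olr1, the lectin-like receptor for oxidised low-density lipoprotein, had the widest gap between genotypes among the 8 genes. The log2 ratio was 4.67, 4.0 and 4.31 in db/db mice 51, 52 and 53 and 0.22, 0.22 and -0.42 in db/+ mice 1, 2 and 3. The groups did not overlap and stood far apart. The difference was 4.32 ± 0.26 on the log2 scale (SE, n = 3 per group), a ratio of about 19.9. In bulk tissue, more cells of a type and more RNA per cell cannot be told apart. The gene was dim in lean fat: the Cy5 intensity was 0.07, 0.07 and 0.03 in the db/+ mice and the pool lay between 0.04 and 0.07 on the 6 arrays. In the db/db mice it was 1.78, 1.12 and 1.39. Since intensities were deposited in steps of 0.01, rounding alone leaves the difference anywhere between 3.92 and 4.72, and the size is approximate.

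**Figure D1:**
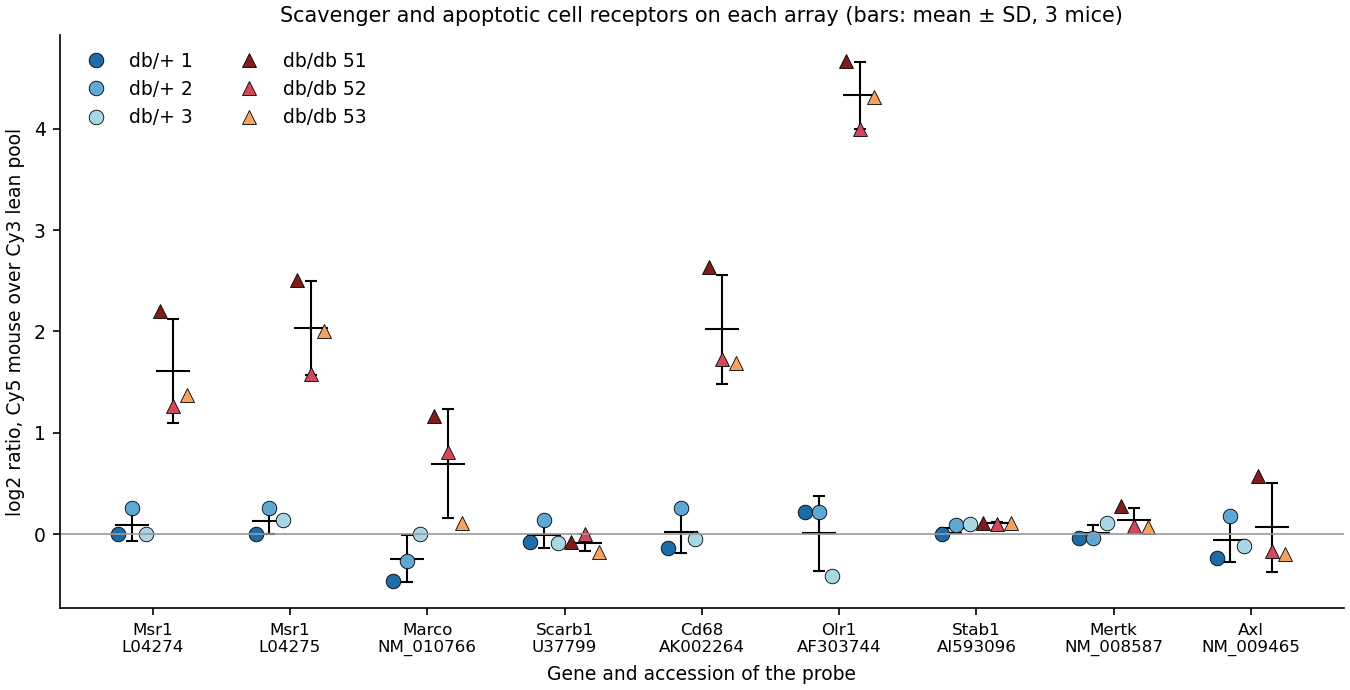
Log2 ratio of Cy5 mouse over Cy3 lean pool (vertical axis) for the 9 probes of the 8 measured genes (horizontal axis), with a point for each of 3 db/+ mice (circles) and 3 db/db mice (triangles) and the group mean ± SD. Olr1, both probes of Msr1, Cd68 and Marco lie higher in every db/db mouse than in any db/+ mouse, while Scarb1, Stab1, Mertk and Axl overlap. For Marco the gap is an intensity step of 0.01.

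Msr1, the class A receptor first known for uptake of acetylated lipoprotein by macrophages, had higher ratios in the db/db mice on both of its probes. On the probe that stood for the gene the log2 ratio was 2.51, 1.58 and 2.00 in db/db mice 51, 52 and 53, against 0.00, 0.26 and 0.14 in the db/+ mice. The Cy5 intensity of that probe was 0.57, 0.27 and 0.36 in the db/db mice. The db/+ values were 0.10, 0.12 and 0.11. The difference was 1.90 ± 0.26 (log2, SE, n = 3 per group), a ratio of about 3.73. The other probe gave 2.20, 1.26 and 1.38 in the db/db mice and 0.00, 0.26 and 0.00 in the db/+ mice, with a difference of 1.53 ± 0.28 that did not pass in the limma fit over all probes (adjusted p = 0.0560). The pool intensity there was 0.05 on all 6 arrays, so rounding leaves that difference between 1.06 and 2.01. On both probes the groups did not overlap and db/db mouse 51 was the highest.

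Marco, a class A receptor that binds bacteria and particles and is best known on macrophages of the lung and the splenic marginal zone, had log2 ratios of 1.17, 0.81 and 0.12 in db/db mice 51, 52 and 53. They were -0.46, -0.26 and 0.00 in the db/+ mice. The deposited values did not overlap, but db/db mouse 53 (0.13 over a pool of 0.12) lay just above db/+ mouse 3 (0.09 over 0.09). That gap is an intensity step of 0.01, so with rounding the groups may overlap. The difference was 0.94 ± 0.31 (log2, SE, n = 3 per group) and was not past the threshold. Rounding alone leaves it between 0.69 and 1.19. The probe was dim, with Cy5 intensities of 0.27, 0.21 and 0.13 in the db/db mice. Those of the db/+ mice were 0.08, 0.10 and 0.09.

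Scarb1, the class B receptor that takes cholesterol ester from high-density lipoprotein in liver and steroid-producing tissues, showed no such gap. The log2 ratios were -0.08, 0.00 and -0.17 in db/db mice 51, 52 and 53 and -0.08, 0.14 and -0.08 in the db/+ mice. The groups overlapped, and the difference was -0.07 ± 0.08 (log2, SE, n = 3 per group). The pool intensity lay between 0.18 and 0.20 on the 6 arrays, and rounding alone leaves a difference between -0.23 and 0.08.

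Cd68, or macrosialin, is a heavily glycosylated protein of macrophage endosomes and lysosomes. Its log2 ratio was 2.64, 1.73 and 1.69 in db/db mice 51, 52 and 53 and -0.14, 0.26 and -0.04 in the db/+ mice. The Cy5 intensity was 2.68, 1.03 and 1.29 in the db/db mice and 0.30, 0.42 and 0.32 in the db/+ mice. Again the groups did not overlap and db/db mouse 51 was the highest. The difference was 1.99 ± 0.30 (log2, SE, n = 3 per group), a ratio of about 3.98, and rounding moves it only between 1.93 and 2.06.

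Stab1, a class H receptor of tissue macrophages and sinusoidal endothelium that clears modified lipoprotein and matrix fragments, was close to the pool on every array. It gave log2 ratios of 0.12, 0.11 and 0.12 in the db/db mice and 0.00, 0.09 and 0.11 in the db/+ mice. The difference was 0.05 ± 0.04 (log2, SE, n = 3 per group), and with pool intensities between 0.11 and 0.15 rounding alone leaves it between -0.18 and 0.27. The deposited accession of this probe is an expressed sequence tag.

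Mertk is the macrophage kinase most closely tied to engulfment of apoptotic cells. It gave log2 ratios of 0.28, 0.08 and 0.07 in db/db mice 51, 52 and 53 and -0.04, -0.04 and 0.11 in the db/+ mice. The groups overlapped, and the difference was 0.13 ± 0.08 (log2, SE, n = 3 per group). Axl, its relative, is found on fibroblasts and endothelium as well as on macrophages. The log2 ratio of Axl was 0.58 in db/db mouse 51, -0.17 and -0.20 in db/db mice 52 and 53, and -0.23, 0.18 and -0.11 in the db/+ mice. The difference of 0.12 ± 0.26 thus averages over db/db mice of which 1 lay above and 2 within the db/+ range, and without db/db mouse 51 it was -0.13. The pool intensity of its probe lay between 0.94 and 1.1, and rounding leaves the difference between 0.10 and 0.15.

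**Figure D2:**
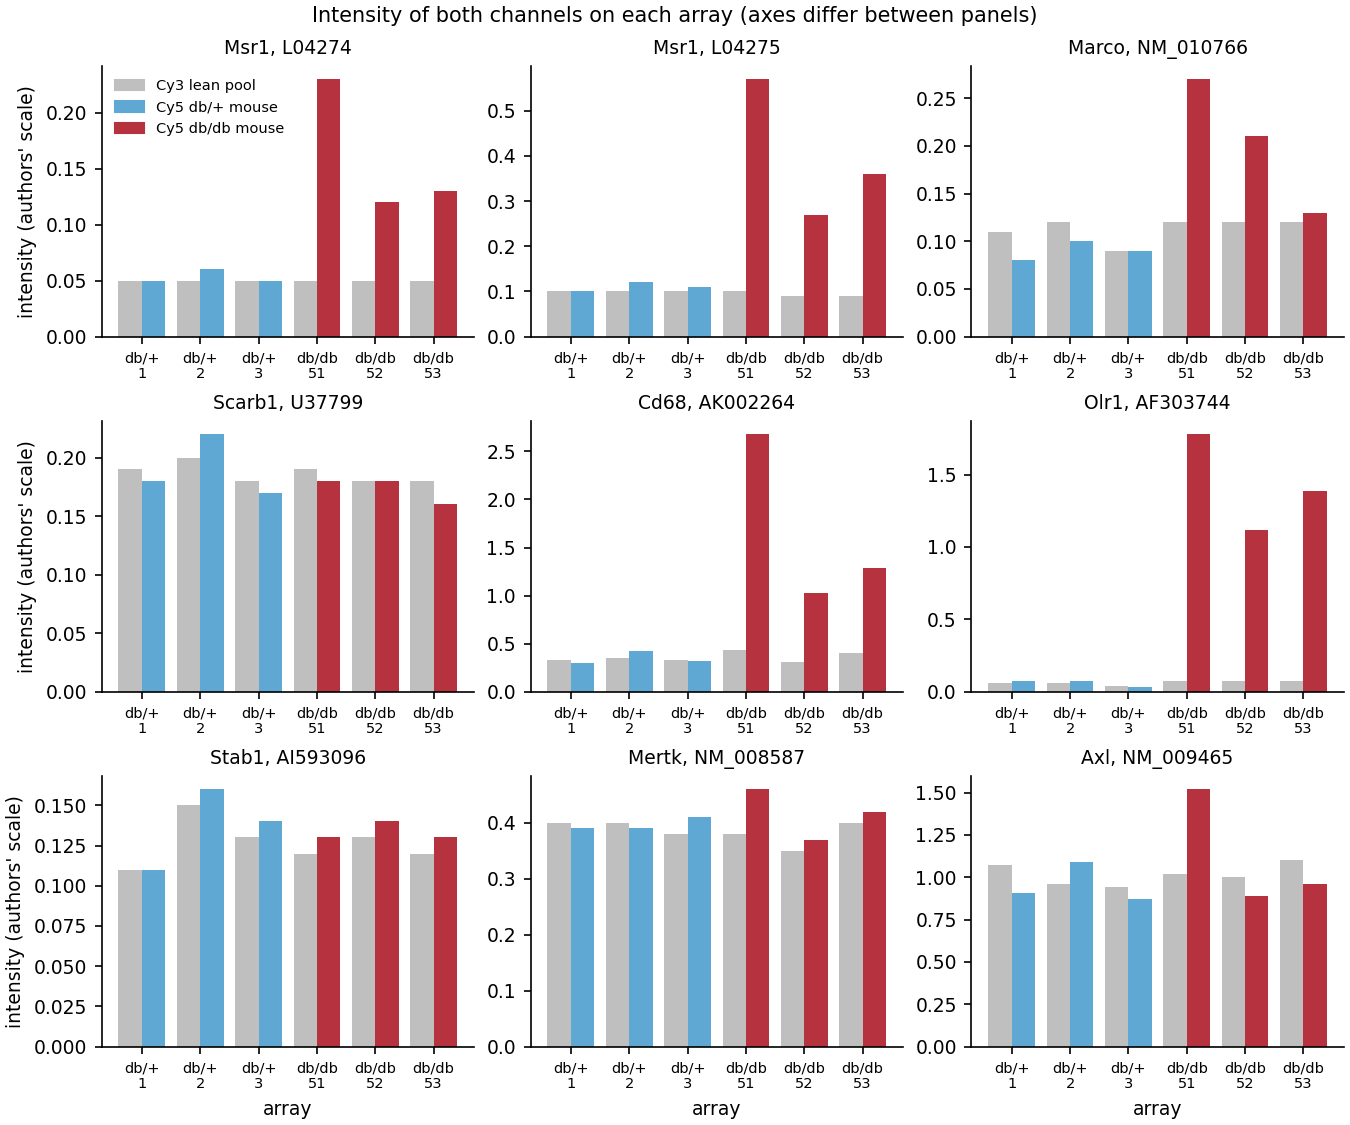
Intensity on the authors' scale (vertical axes from 0, differing between panels) of the Cy3 lean pool (grey) and the Cy5 mouse (blue for db/+, red for db/db) on each of 6 arrays (horizontal axes), 1 panel per probe. Olr1 has 0.03 to 0.07 in the db/+ mice and 1.12 to 1.78 in the db/db mice with a pool of 0.04 to 0.07 on all 6 arrays.

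In the fit of limma across all genes, 6.68% of the 17024 genes were called at an adjusted p under 0.05 in either direction, 2.92% as higher and 3.77% as lower in db/db. Of the 8 measured receptors, 3 (Olr1, Msr1 and Cd68) were called higher, none was called lower and 5 were not called. At an unadjusted p under 0.05 limma gave 4 higher and 0 lower. In the fit of the deposited series matrix, 3959 of 17023 genes had an unadjusted p under 0.05 in either direction. The unadjusted counts of the gene lists below are to be read beside that share. The limma adjusted p lay between 0.00702 and 0.0340 for the 3 called genes and between 0.157 and 0.815 for the other 5. The genes were chosen with this contrast known, and nothing is read from the count. The median log2 fold change was 0.53 over the 8 genes and 0 over all genes. The ratios of 4 receptors lay higher in all db/db than in all db/+ mice, as did those of 11.4% of the genes measured on every array, and 4 overlapped. Olr1 stayed past the threshold whichever array was left out (adjusted p between 0.00799 and 0.0436). Msr1 stayed past it without db/db mouse 51 or 52, but not without db/+ mouse 1, 2 or 3 or db/db mouse 53 (limma adjusted p = 0.106, 0.105, 0.132 and 0.0801). Cd68 stayed past it only without db/db mouse 51. Without db/+ mouse 1, 2 or 3 or db/db mouse 52 or 53 its adjusted p by limma was 0.122, 0.111, 0.152, 0.0872 and 0.0703. For db/db mouse 51 alone against the db/+ mice, without the 2 arrays of high epididymis markers, the differences of Olr1, Msr1 and Cd68 were 4.66, 2.38 and 2.61. With 1 db/db array the spread comes from the db/+ mice only, and no call is read from that fit. After quantile normalization of the ratios between arrays none of these 3 receptors was called (limma adjusted p = 0.181, 0.299 and 0.318; 4 receptors had an unadjusted p under 0.05), with differences of 2.72, 1.16 and 1.38.

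The authors' deposited table also holds a p-value for each probe on each array, for the mouse against the pool, from an error model that no source used here describes. In the authors' deposited table the p-value of Olr1 was 1.33e-16, 3.18e-23 and 2.93e-25 in db/db mice 51, 52 and 53. On the db/+ arrays that table gave 0.39 to 0.57 for it. The authors' deposited table gave a p under 0.01 with a ratio above 1 on all 3 db/db arrays for Olr1, Msr1 and Cd68, and did so for 3.0% of the genes measured on every array. Marco had such a value in db/db mice 51 and 52 (6.05e-09 and 4.17e-05) and 0.67 in db/db mouse 53 in the authors' deposited table. In the same source Axl reached 9.85e-04 in db/db mouse 51 alone. On the db/+ arrays none of the 8 receptors had a deposited p under 0.01, against 3.07% of genes with at least 1 such array.

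Macrophage markers differed among the db/db mice, and the receptors were set beside them. Of 12 listed macrophage markers 10 were measured. Itgax (CD11c) and Gpnmb, a glycoprotein of lipid-laden macrophages, were called higher, none was called lower and 8 were not called. At an unadjusted p under 0.05 by limma, 5 were higher and 1 was lower. The median log2 ratio of the 10 markers was 0.97, 0.09 and 0.48 in db/db mice 51, 52 and 53 and -0.13, 0.19 and -0.04 in the db/+ mice. Their summed Cy5 intensity ranged from 25.8 to 36.3 in the db/+ mice and from 37.1 to 79.0 in the db/db mice. Gpnmb rose most in intensity among these markers, averaging 1.22 in the db/+ and 21.02 in the db/db mice. Itgax averaged 0.7 and 4.67, whereas Cd163 fell from 12.42 to 7.06. The sum is thus not read as a rise shared by all of these markers. Adgre1, the gene of a classic surface marker of mouse macrophages, had a log2 difference of 1.35 ± 0.38 and did not pass (limma adjusted p = 0.117). The part of macrophage number in the receptor values was not tested. Cd163, Cd14, Trem2 and Mrc1 of this list are also counted among the related genes.

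After the macrophage median of the same array was subtracted, Olr1 stood at 3.70, 3.91 and 3.83 in db/db mice 51, 52 and 53. Msr1 stood at 1.55, 1.49 and 1.52, and Cd68 at 1.67, 1.64 and 1.20. The other receptors were not above 0 on every db/db array: Marco gave 0.20, 0.72 and -0.37, Mertk -0.69, -0.01 and -0.41, Stab1 -0.85, 0.02 and -0.37, Scarb1 -1.04, -0.09 and -0.65, and Axl -0.39, -0.26 and -0.68. In the db/+ mice the same quantity lay between -0.45 and 0.35 for all 8 genes. The range over the db/db mice narrowed with the subtraction for 4 genes, from 0.67 to 0.21 for Olr1, 0.93 to 0.05 for Msr1, 0.95 to 0.47 for Cd68 and 0.77 to 0.42 for Axl. For the other 4 it widened, from 1.05 to 1.09 for Marco, 0.17 to 0.95 for Scarb1, 0.01 to 0.87 for Stab1 and 0.21 to 0.68 for Mertk. The subtracted median itself differed among the db/db mice, so a gene with flat ratios widens by arithmetic. Msr1 stands here by the probe used for the gene, and its other probe was not set against the median. Rounding alone leaves the Msr1 difference between genotypes between 1.66 and 2.14. Its range of 0.05 is thus finer than the deposited steps resolve.

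**Figure D3:**
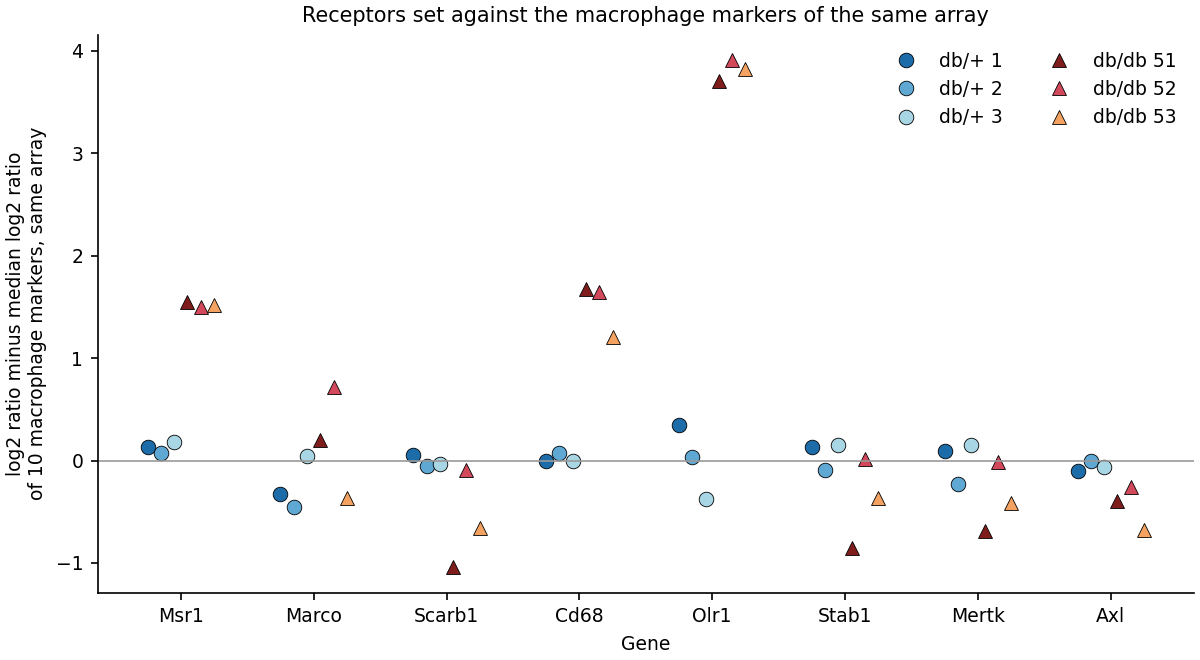
Log2 ratio of each receptor minus the median log2 ratio of 10 macrophage markers on the same array (vertical axis) by gene (horizontal axis), for 3 db/+ mice (circles) and 3 db/db mice (triangles). Msr1 lies at 1.49 to 1.55 and Olr1 at 3.70 to 3.91 in the db/db mice, whereas Scarb1, Mertk and Axl lie below 0 in all 3. Msr1 is shown by the probe that stood for the gene, and its narrow range is finer than the rounding of intensities resolves.

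Set against Adgre1 alone, a reference chosen after its values were seen, Olr1, Msr1 and Cd68 came nearer 0 in every db/db mouse. Scarb1, Stab1, Mertk and Axl moved further from 0. Adgre1 lay above the macrophage median on each db/db array, so every gene of an array shifted down by the same amount. The direction of these shifts follows from the change of reference, and nothing is read from it. Olr1 then stood at 2.55, 3.18 and 3.04 in db/db mice 51, 52 and 53, Msr1 at 0.39, 0.77 and 0.73 and Cd68 at 0.52, 0.91 and 0.42. In db/+ mice 1, 2 and 3 Olr1 gave 0.50, -0.09 and -0.54, Msr1 0.28, -0.05 and 0.01 and Cd68 0.14, -0.05 and -0.17. On the probe that stood for the gene the groups of Msr1 thus lay close, at 0.39 in db/db mouse 51 and 0.28 in db/+ mouse 1. The other Msr1 probe gave 2.20 against 2.12 for Adgre1 in db/db mouse 51. In db/+ mouse 1 it gave 0.00 against -0.28, so on that probe the groups overlapped relative to Adgre1. The values that follow are again those of db/db mice 51, 52 and 53. Marco stood at -0.95, -0.01 and -1.16, Mertk at -1.84, -0.74 and -1.20, Stab1 at -2.00, -0.71 and -1.16, Scarb1 at -2.20, -0.82 and -1.44 and Axl at -1.54, -0.99 and -1.47. Between the references the sign turned for Marco in db/db mice 51 and 52 and for Stab1 in db/db mouse 52.

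Other cell types were read from their own markers. Of the 7 adipocyte markers 1 was called higher and 2 lower by limma (1 and 3 at an unadjusted p under 0.05), with a median log2 fold change of -0.68. Lep, the gene of leptin, rose by 1.45 ± 0.21 (limma adjusted p = 0.0328). Slc2a4, which encodes the glucose transporter that insulin moves to the surface, fell by 1.33 ± 0.23 (limma adjusted p = 0.0419). Cidec fell by 1.09 ± 0.07 (limma adjusted p = 0.0256) on 4 arrays, those of db/+ mice 1 and 3 and db/db mice 52 and 53. Its db/db values thus come only from the 2 arrays of high epididymis markers. Adipoq had -2.08 ± 0.41 and did not pass (limma adjusted p = 0.0565), with ratios of -1.31, -2.21 and -2.86 in db/db mice 51, 52 and 53. The part of adipocyte number in the values of the receptors, Gas6 and Pparg was not tested. Of 6 measured endothelial markers none was called by limma (3 lower at an unadjusted p under 0.05), with a median log2 fold change of -0.43; Kdr, the main VEGF receptor, had -1.21 ± 0.27 (limma adjusted p = 0.0710). Of 9 measured lymphocyte, neutrophil and mast cell markers none was called (0 also at an unadjusted p under 0.05), and their summed Cy5 intensity was 1.36 to 1.44 in the db/+ and 1.21 to 1.38 in the db/db mice. Mesothelium markers (5 measured, none called, 1 lower at an unadjusted p under 0.05) had medians of -1.29, 0.43 and 0.98 in db/db mice 51, 52 and 53. The keratins of that list, Krt8, Krt18 and Krt19, which other epithelia share, were low in db/db mouse 51 and high in the other 2. Msln (mesothelin) and Wt1 did not share that split, with -0.54, -0.91 and -1.19 and with -0.04, -0.25 and -0.57 in db/db mice 51, 52 and 53.

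The genes whose profiles over the 6 arrays were most like those of the called receptors were looked up among 10282 genes by the root mean square difference of log2 ratios, as a description. For Olr1 the nearest was Il1rn, the interleukin-1 receptor antagonist, at 0.21. Next came Ppp1r3a, which directs protein phosphatase 1 to glycogen, at 0.39 and Atp6v0d2, a proton pump subunit of osteoclasts and macrophages, at 0.56. For Msr1 they were Rrm2, a subunit of ribonucleotide reductase, at 0.09, Ctss, the lysosomal protease cathepsin S, at 0.09 and Ms4a6d, a membrane protein of the MS4A family, at 0.10. For Cd68 they were Ctss at 0.10, Glipr1 at 0.11 and Cd84, a leukocyte receptor of the SLAM family, at 0.11. Ctss was near both Msr1 and Cd68, with log2 ratios of 2.53, 1.71 and 1.87 in db/db mice 51, 52 and 53. The profile of Olr1 had no neighbour as close as those of Msr1 and Cd68. The measure compares the ratios themselves, so only genes with ratios as large can be near Olr1, and nothing is read from this. Ppp1r3a and Glipr1 were dim in db/+ fat, with Cy5 intensity averaging 0.04 and 0.06, and passed the minimum of 0.1 through the db/db mice only.

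Around the receptors, 59 related genes were listed in 5 groups, of which 44 were measured. Of these, 6 were higher and 4 lower in db/db by limma, 22.7% against the 6.68% of all genes, with a median log2 fold change of 0.11. The lists were written with earlier results of these data known, so nothing is read from that share. The share over all genes also includes dim ones: with a mean Cy5 intensity of at least 0.1 in a group, limma called 1557 of 10417 genes. The count of related genes called ranged from 1 to 15 as single arrays were left out. It was 15 without db/db mouse 51, 1 without db/+ mouse 2 or 3 and 2 without db/+ mouse 1 or db/db mouse 52 or 53. With db/db mouse 51 as the only db/db array the fit gave 9, all higher, with a spread taken from the db/+ mice only. After quantile normalization 0 were called by limma, with 13 at an unadjusted p under 0.05.

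Among other scavenger receptors, 1 of 9 rose and none fell by limma (2 lower at an unadjusted p under 0.05). Clec7a (dectin-1, which binds fungal glucan) rose by 1.50 ± 0.27 (log2, SE; limma adjusted p = 0.0456), with ratios of 2.04, 1.19 and 1.23 in db/db mice 51, 52 and 53. The largest uncalled values were those of Megf10 and Cd163. Megf10, an engulfment receptor of glia, had -1.44 ± 0.27 (limma adjusted p = 0.0525), with Cy5 intensity averaging 0.03 in db/+ fat. Cd163, the haemoglobin receptor of resident macrophages, had -0.82 ± 0.20 (limma adjusted p = 0.0900). Cd36, the class B receptor for fatty acids and oxidised lipoprotein, had -0.28 ± 0.23. The median of the 9 was -0.13. Other receptors for apoptotic cells gave no call by limma among 6 measured (2 higher at an unadjusted p under 0.05), and their median was 0.03. Cd14, a co-receptor for lipopolysaccharide that also binds dying cells, had 0.62 ± 0.18 (adjusted p = 0.121), and Itgav, the alpha v integrin that binds Mfge8 on dying cells, had 0.57 ± 0.15 (limma adjusted p = 0.103). Tyro3, the third kinase of the family of Mertk and Axl, had 0.07 ± 0.07, with Cy5 intensity averaging 0.0433 in db/+ fat.

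Among the bridging ligands of dying cells, 1 of 9 rose and 1 fell by limma (3 higher and 1 lower at an unadjusted p under 0.05), with a median of 0.19. Gas6, the ligand that links Mertk and Axl to phosphatidylserine, fell by 0.77 ± 0.12 on the log2 scale (SE; limma adjusted p = 0.0339). The log2 ratios of Gas6 were -0.66, -0.83 and -0.79 in the db/db mice and -0.21, 0.17 and 0.07 in the db/+ mice, without overlap. Pros1, a ligand of Mertk and Tyro3, had 0.07 ± 0.19. Lgals3 (galectin-3, a ligand of Mertk and a macrophage product) rose by 0.76 ± 0.12 (limma adjusted p = 0.0340), with ratios of 0.74, 0.85 and 0.62 in the db/db mice. The complement subunits C1qa, C1qb and C1qc had 0.19, 0.73 and 0.56, and none passed. The largest uncalled value was 0.90 ± 0.29 for Anxa1 (annexin A1, adjusted p = 0.178), measured on 5 arrays.

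**Figure D4:**
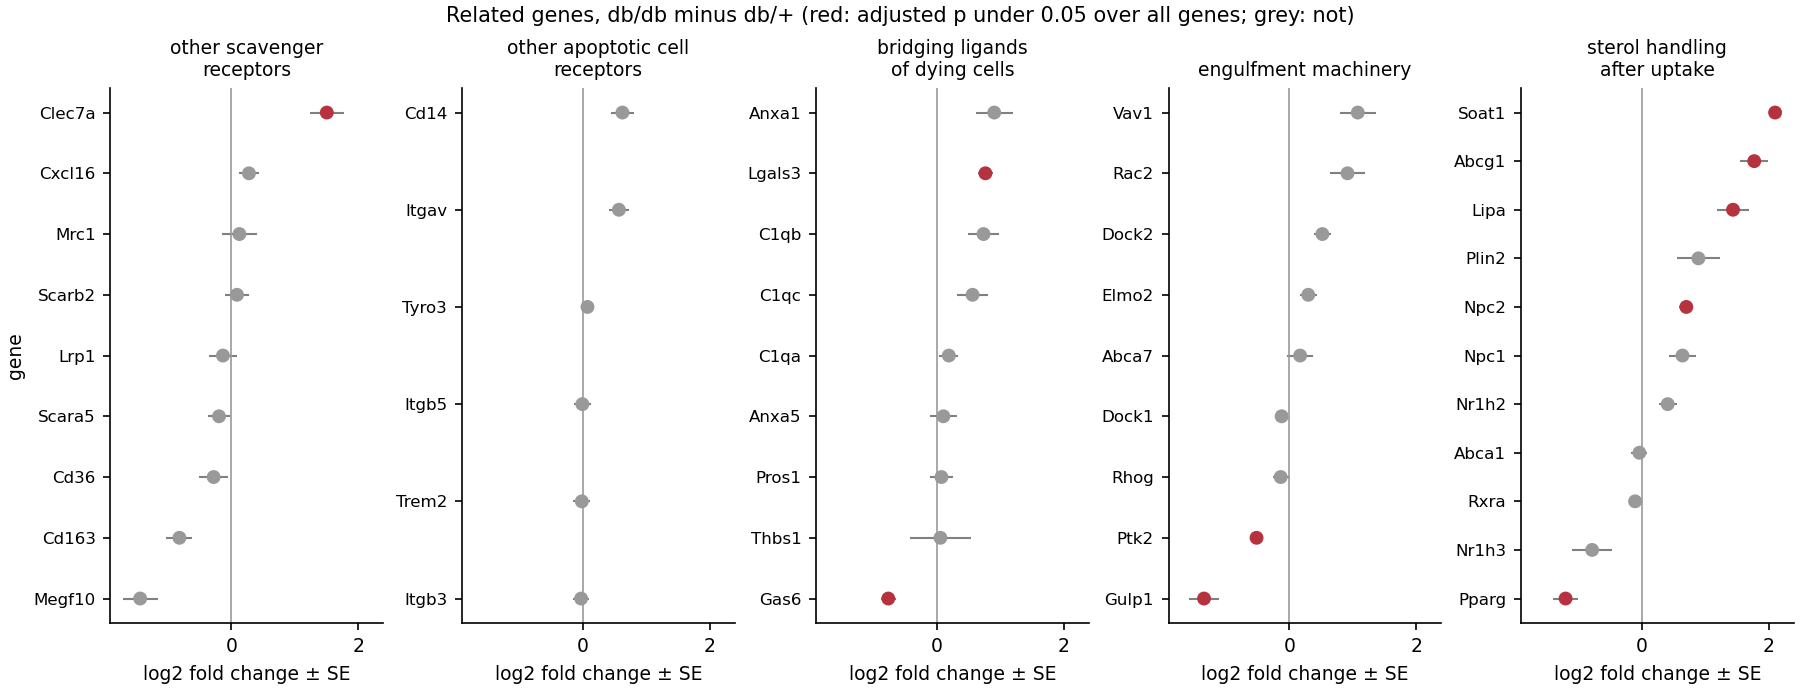
Log2 fold change of db/db minus db/+ with its SE (horizontal axes) for the measured genes of 5 related groups (vertical axes), called genes in red and others in grey. Soat1, Abcg1, Lipa and Npc2 lie to the right among the sterol genes, with Pparg to the left, and Gas6, Gulp1 and Ptk2 lie to the left in their groups.

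Of the engulfment machinery, none of 9 rose and 2 fell by limma (3 higher at an unadjusted p under 0.05), with a median of 0.17. Gulp1, an adaptor that links engulfment receptors to the cell interior, fell by 1.35 ± 0.24 (log2, SE; limma adjusted p = 0.0445). Ptk2, the focal adhesion kinase, fell by 0.52 ± 0.09 (limma adjusted p = 0.0425). The haematopoietic members Vav1 and Rac2 had 1.08 ± 0.28 and 0.91 ± 0.27 and did not pass (limma adjusted p = 0.0990 and 0.128). Both were highest in db/db mouse 51, at 1.65 and 1.37.

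The group with most calls was that of sterol handling after uptake, in which 4 of 11 rose and 1 fell by limma, with a median of 0.64. At an unadjusted p under 0.05, 6 of that group were higher and 1 was lower. Soat1, which esterifies cholesterol for storage in foam cells, rose by 2.10 ± 0.10 (log2, SE; limma adjusted p = 0.00404), with ratios of 2.26, 2.01 and 2.17 in db/db mice 51, 52 and 53 against 0.19, -0.06 and 0.00 in the db/+ mice. Abcg1, a sterol exporter to high-density lipoprotein, rose by 1.77 ± 0.22 (limma adjusted p = 0.0236). Lipa, the lysosomal acid lipase, rose by 1.44 ± 0.25 (limma adjusted p = 0.0445), and Npc2, which carries cholesterol out of lysosomes, by 0.70 ± 0.11 (limma adjusted p = 0.0375). Pparg, the nuclear receptor of adipocyte differentiation that also acts in macrophages, fell by 1.20 ± 0.20 (limma adjusted p = 0.0419). Abca1, the exporter to lipid-poor apolipoprotein, had -0.04 ± 0.13, and Plin2, a lipid droplet coat protein, had 0.89 ± 0.34 (limma adjusted p = 0.215). Nr1h3, the sterol sensor LXR alpha, had -0.78 ± 0.32 (adjusted p = 0.235). Of the 10 called related genes only Soat1 stayed past the threshold whichever of the 6 arrays was left out (limma adjusted p between 0.00555 and 0.0406); the other 9 did so in 1 or 2 of the 6 fits, although each kept its sign in all 15 alternatives.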

How the data were processed

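Total RNA of 6 eWAT samples went through 2 rounds of amplification, per the labels' protocols, and no array was dye-swapped. Agilent Feature Extraction 8.5.1.1 is named in the submitters' processing notes. The authors deposited, per probe and array, an intensity for the mouse, another for the lean pool, and a p-value. The deposited intensities were normalized in a way that no source used here describes, and 97.3% are multiples of 0.01 (tolerance 1e-06 of a step). A deposited series matrix holds log10 ratios by labelled replicate. The numbers 51 to 53 of the db/db mice stand in the file headers and in no label, so those arrays were used without replicate numbers.

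Log2 of Cy5 over Cy3 intensity was taken with no further normalization. Each gene was represented by its probe of greatest mean intensity, preferring probes with a value on all 6 arrays to those with 2 or more values in each group. Through a RefSeq table, 17207 probes kept a current symbol, 317 were renamed from accessions and 1790 from synonyms, 7 took a name from the accession only, 2018 retained the deposited name and 2217 stayed unnamed. Genotypes were compared with limma 3.58.1 in R 4.3.3 (lmFit, eBayes, no block), Benjamini-Hochberg adjusted over 17024 genes at 0.05. The procedure was also run on simulated data, with independent noise of the db/+ spread in both groups. That setting does not cover a larger or shared spread among the db/db mice, so nothing is read from it. Alternatives covered scaling, channel, dim probes, the probe rule, the series matrix, loess, single arrays and a replicate block.

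The receptors and the gene lists were chosen with earlier results of these data known. Named are all receptors, the called genes of each related list (at most 5 per list) with the 2 largest uncalled ones, and, per called receptor, 3 genes of nearest profile among those with a mean Cy5 intensity of at least 0.1 in a group. Tyro3, Cd36, Pros1, C1qa, C1qc, Abca1, Adgre1, Itgax, Gpnmb, Adipoq, Fabp4, Pnpla2, Cidec, Lep, Slc2a4, the keratins, Msln, Wt1 and Kdr fall outside this rule; their values had been seen when they were picked.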

Additional observations from a re-analysis of the deposited data

How the results depend on the processing

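The count of 1138 genes called by limma became 0 once ratios were quantile normalized between arrays (2096 had an unadjusted p under 0.05). It was 561 with Cy5 alone, 688 with intensities floored at 0.05 and 1790 for db/db mouse 51 alone, an alternative chosen after seeing the data, in which the lone db/db array is assumed to vary like the db/+ arrays. Leaving out single arrays gave 168, 116 and 53 without db/+ mouse 1, 2 or 3, and 3423, 249 and 559 without db/db mouse 51, 52 or 53. Of the receptors, 0 were called after quantile normalization (4 at an unadjusted p under 0.05) and 1 to 3 without single arrays. Of the related genes, 0 were called after quantile normalization (13 unadjusted), 2 with the floor and 1 to 15 without single arrays. Log2 fold changes after quantile normalization were 2.72 for Olr1, 1.16 for Msr1 and 1.38 for Cd68 (limma adjusted p = 0.181, 0.299 and 0.318). Cd68 gave an adjusted p of 0.0527 with the floor. Stab1 changed sign after quantile normalization, to -0.053, and with Cy5 alone, to -0.020. As single arrays were left out, Axl ranged from -0.13 without db/db mouse 51 to 0.26 without db/db mouse 53. None of these values passed. For db/db mouse 51 alone the difference of Axl was 0.63. Direction held for Olr1, Msr1, Marco, Scarb1, Cd68 and Mertk in all 15 alternatives. The cause of these changes was not tested. Same-numbered arrays of the series matrix deviated from their group means with r = -0.48, -0.41 and -0.02. For arrays of different number r lay between -0.31 and 0.44. Deviations from a mean of 3 mice depend on each other, so these values cannot tell whether the samples were paired. With the replicate block on the series matrix limma called 0 genes (3085 unadjusted), 0 receptors (3 unadjusted) and 0 related genes (14 unadjusted). Dim probes limit precision: Olr1, Msr1, Marco, Scarb1 and Stab1 had pool intensities of 0.20 or less, and flags for signal above background were not used here. Some related and marker genes lay near the top of the scale, where the highest Cy5 intensity of an array was 26.85 to 30.5. Lgals3 and Plin2 averaged 27.8 in the db/db mice, Anxa1 27.0 in the db/db and Cidec 29.2 in the db/+ mice. Whether their ratios were compressed was not tested.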
